A study of Mus musculus with 36 samples.

Results

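The genes described here encode the lysosomal proton pump (V-ATPase), its accessory proteins, the cathepsin proteases and the lysosomal membrane proteins Lamp1 and Lamp2. They were taken by symbol, as every gene on the chips whose single platform symbol starts with Atp6v or Atp6ap, is Cts followed by 1 letter, or is Lamp1 or Lamp2. Of 42 such symbols, 33 had a probe set with a mean signal of at least 20% of the array's trimmed mean and were measured, among 14650 genes in all. They comprised 10 of 12 V1 subunit genes, 7 of 8 V0 subunit genes, both accessory genes, 9 of 14 cysteine cathepsins, both aspartic cathepsins, 1 of 2 serine cathepsins and both membrane proteins. The dimmest gene kept was Atp6v1e2, at 21.7% of the trimmed mean, and the brightest left out was Atp6v0a4, at 12.7%. The other genes left out, Atp6v1b1, Atp6v1c2, Ctsg, Ctsj, Ctsm, Ctsq, Ctsr and Ctsw, lay between 2.07% and 6.80%.

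The V-ATPase is a rotary pump that acidifies lysosomes and endosomes. Its cytosolic V1 sector hydrolyses ATP and its membrane V0 sector passes protons. Cathepsins are made as inactive precursors, sorted to the lysosome and activated in its acid lumen, where most of them degrade protein as cysteine, aspartic or serine proteases. Many of these genes carry the palindromic E-box of the CLEAR element in their promoters, which the transcription factors TFEB and TFE3 bind. Growth signalling through Akt and mTORC1 keeps TFEB out of the nucleus, and in heart muscle the lysosome is the end point of autophagy.

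RNA came from 18 hearts of male mice that carried both Tet-myrAkt1 and ?MHC-tTA, where the question mark stands for a character that the labels do not show. In such a pair of transgenes a tetracycline-controlled activator, driven in heart muscle cells by a myosin heavy chain promoter, switches on a membrane-targeted, active form of Akt1. Control hearts carried both transgenes too, and hearts without them were not analysed here. The 4 control hearts were taken before induction at 12 weeks of age. Mice aged 14 weeks had the transgene on for 2 weeks (n = 4), and mice aged 14 weeks and 2 days had it on for 2 weeks and then off for 2 days (n = 4). Mice aged 18 weeks had it on for 6 weeks (n = 3), and mice aged 20 weeks had it on for 6 weeks and then off for 2 weeks (n = 3). Each state of the transgene therefore came with its own age, and the labels do not name the agent that switched it. Whole heart tissue was measured, so fewer cells of a type and less RNA per cell cannot be told apart. Each heart came from 1 mouse, so the spread behind each p-value is that between individual mice. The 7 comparisons share groups: hearts before induction enter 4 of them, and each induced group is the reference for its repression.

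The E-box is shown first because it is the element known from lysosomal promoters and the selection by symbol did not use it; most of the members did not hold it. RefSeq promoter windows (GRCm38.p6, 250 bases before the start to 50 bases after it) were at hand for 24 of the 33 genes. The motif TCACGTG was searched on both strands, and 7 of the 24 genes held it, against 3.77% of 32851 windows of the same length. The full palindrome TCACGTGA, which contains that motif, stood in 5 of 24 genes against 0.974% of windows. The shorter core CACGTG stood in 9 of 24 against 7.15%. The stretches before the start are printed below for the 5 genes whose motif lies upstream, 5′ to 3′ on the strand of the gene, with TCACGTG, its reverse complement or the palindrome in capitals.
Lamp1: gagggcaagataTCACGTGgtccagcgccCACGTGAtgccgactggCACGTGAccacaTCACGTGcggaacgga
Atp6v0b: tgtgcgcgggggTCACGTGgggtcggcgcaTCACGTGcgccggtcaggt
Ctsd: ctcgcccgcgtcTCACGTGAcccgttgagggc
Atp6v1a: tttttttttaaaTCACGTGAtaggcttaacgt
Ctsa: atgagcaaactgTCACGTGAtgcag

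The Lamp1 stretch lies at chr8:13159087-13159160 on the plus strand and runs up to the start of the gene, with 4 matches in 74 bases. The Atp6v0b stretch is chr4:117887330-117887378 on the minus strand, with 2 matches in its 49 bases. The Ctsd stretch is chr7:142387907-142387938 and the Atp6v1a stretch chr16:44139372-44139403, both on the minus strand and each with the palindrome; the Ctsd window holds another match 245 bases before the start. The Ctsa stretch is chr2:164833748-164833772 on the plus strand, 25 bases that end at the start of the gene. Atp6v0d1 and Atp6v0e held the palindrome at or just past the start. Of the 7 genes with the motif, Atp6v0b, Atp6v0e, Atp6v1a and Ctsd changed in at least 1 comparison described below by their brightest probe set, and Atp6v0d1, Ctsa and Lamp1 did not. Over all measured members, with or without a promoter window, 12 were called at least once and 21 were not. No share of all genes called at least once was at hand. Some calls of the motif genes, that of Atp6v0b among them, were lost without single hearts, as given below. Whether the motif goes with a change was not tested. A match is a description of letters and shows neither binding nor its absence.

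**Figure D1:**
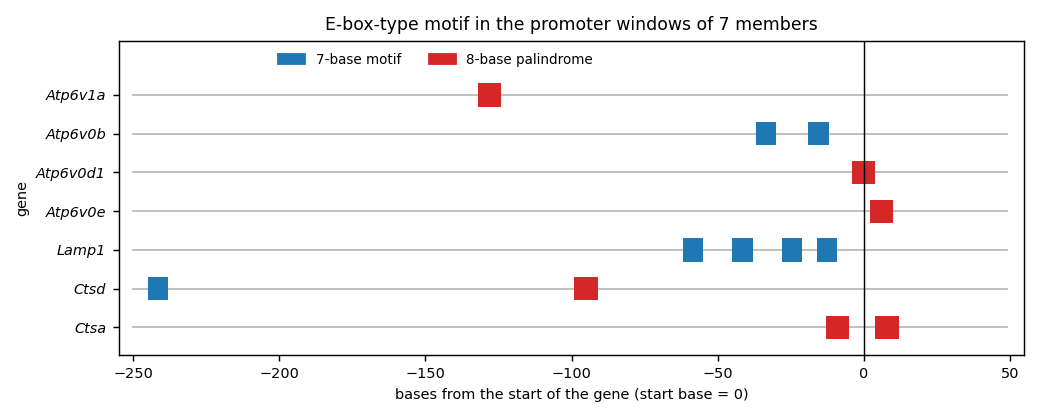
Position of the motif TCACGTG (blue) and of the palindrome TCACGTGA (red) on either strand in the promoter windows of 7 genes; the x axis gives bases from the start of the gene, with the start base at 0. Lamp1 carries 4 matches within the last 62 bases before its start.

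The targeted gene followed the labels. The signal of Akt1 by its brightest probe set, 1425711_a_at, was 547.8 ± 69.7 (SD, n = 4) before induction, 2878 ± 645 (n = 4) after 2 weeks and 2365 ± 542 (n = 3) after 6 weeks of induction. It was 718 ± 21.8 (n = 4) after 2 days and 753 ± 106 (n = 3) after 2 weeks of repression. Another Akt1 probe set, 1416657_at, fell by 0.54 ± 0.16 at 6 weeks of induction (adjusted p = 0.0236). Heart muscle markers were bright in every group, with a mean signal of 23544 for Myh6. Hearts 3 and 4 before induction, labelled male, had a signal of 5412.5 and 3271 for Xist, which is made in female cells, by its brightest probe set, 1436936_s_at, against at most 289 in the other hearts. Heart 3 after 6 weeks of induction stood apart in RNA quality, with an Actb 3′/5′ ratio of 3.71 on chip 430A. That ratio was 1.38 ± 0.17 before induction, 1.47 ± 0.30 after 2 weeks of induction, 2.10 ± 1.39 after 6 weeks, and lower in the repressed hearts, at 1.09 ± 0.06 and 1.10 ± 0.13. Where leaving out these hearts ended a call named below for a pump, accessory, cathepsin or Lamp gene, the value without them is given. For the called probe sets of Ctsc and Ctsh such values are not given. Whether the calls of Akt1 and of the genes in the other lists below hold without these hearts was not tested.

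Expression was compared on the log2(signal + offset) scale, with an offset of 10% of the trimmed mean, in a limma model over all hearts, and a gene was called at a Benjamini-Hochberg adjusted p under 0.05. This scale understates the change of dim genes. Each gene stands by its brightest probe set unless another is named, and changes are log2 changes ± the standard error of the model. Over all genes, 6 weeks of induction with signals as deposited gave a median change of -0.05, and scaling the arrays to a common median moved it by 0.16. That scaling also moved the share of higher probe sets among those called at 6 weeks of induction from 42.8% to 70.6%, at 2 weeks from 53.1% to 67.8% and between 6 and 2 weeks from 41.7% to 63.6%. Among calls after repression it moved the share from 54.3% to 40.2% at 2 days against 2 weeks of induction and from 59.5% to 43.2% at 2 weeks against 6 weeks of induction. Against hearts before induction it moved the share from 54.7% to 65.2% at 2 days and from 45.5% to 63.1% at 2 weeks of repression. Directions below are therefore relative to the deposited scaling.

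In each comparison most of the lysosomal genes did not pass the test, and neither did most of all genes. With the transgene on for 2 weeks, 3 of the 33 genes rose, among 3.69% of all genes, and 0 fell by limma, among 2.90%, with 2 lower at an unadjusted p under 0.05. With 6 weeks of induction 5 rose, among 7.58% of all genes, and 1 fell, among 8.14%. Between 6 and 2 weeks of induction 1 rose, among 2.35% of all genes, and 1 fell, among 2.82%.

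Repression for 2 days after 2 weeks of induction raised 3 of the 33 genes, among 5.23% of all genes, and lowered 1, among 5.36%. With median scaling the split turned, to 1 higher and 3 lower. Repression for 2 weeks after 6 weeks of induction raised 3, among 7.19% of all genes, and lowered 3, among 5.53%. With median scaling 2 were higher and 5 lower. Against hearts before induction, 1 gene was higher after 2 days of repression, among 2.00% of all genes, and 1 after 2 weeks, among 1.50%. Each of those comparisons had 0 lower genes by limma, among 1.81% and 1.21% of all genes, and none lower at an unadjusted p under 0.05. With counts of 0 to 5 of 33 genes, no share was read as different from that over all genes. In all, 12 genes were called in at least 1 of the 7 comparisons and 21 in none. No share of all genes called at least once was at hand, so this count is not read as high or low.

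These calls came from the limma fit over all probe sets of a chip. The median change of the 33 genes was 0.05 after 2 weeks and 0.13 after 6 weeks of induction, against -0.02 and -0.05 over all genes. On repression it was 0.05 in both comparisons with induced hearts, against -0.001 at 2 days and 0.03 at 2 weeks over all genes, and with median scaling it turned to -0.08 and -0.10. The plot of changes by gene shows that the spread within the set exceeded its median, from -0.83 to 0.64 after 2 weeks of induction and from -0.81 to 0.93 after 2 weeks of repression.

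**Figure D2:**
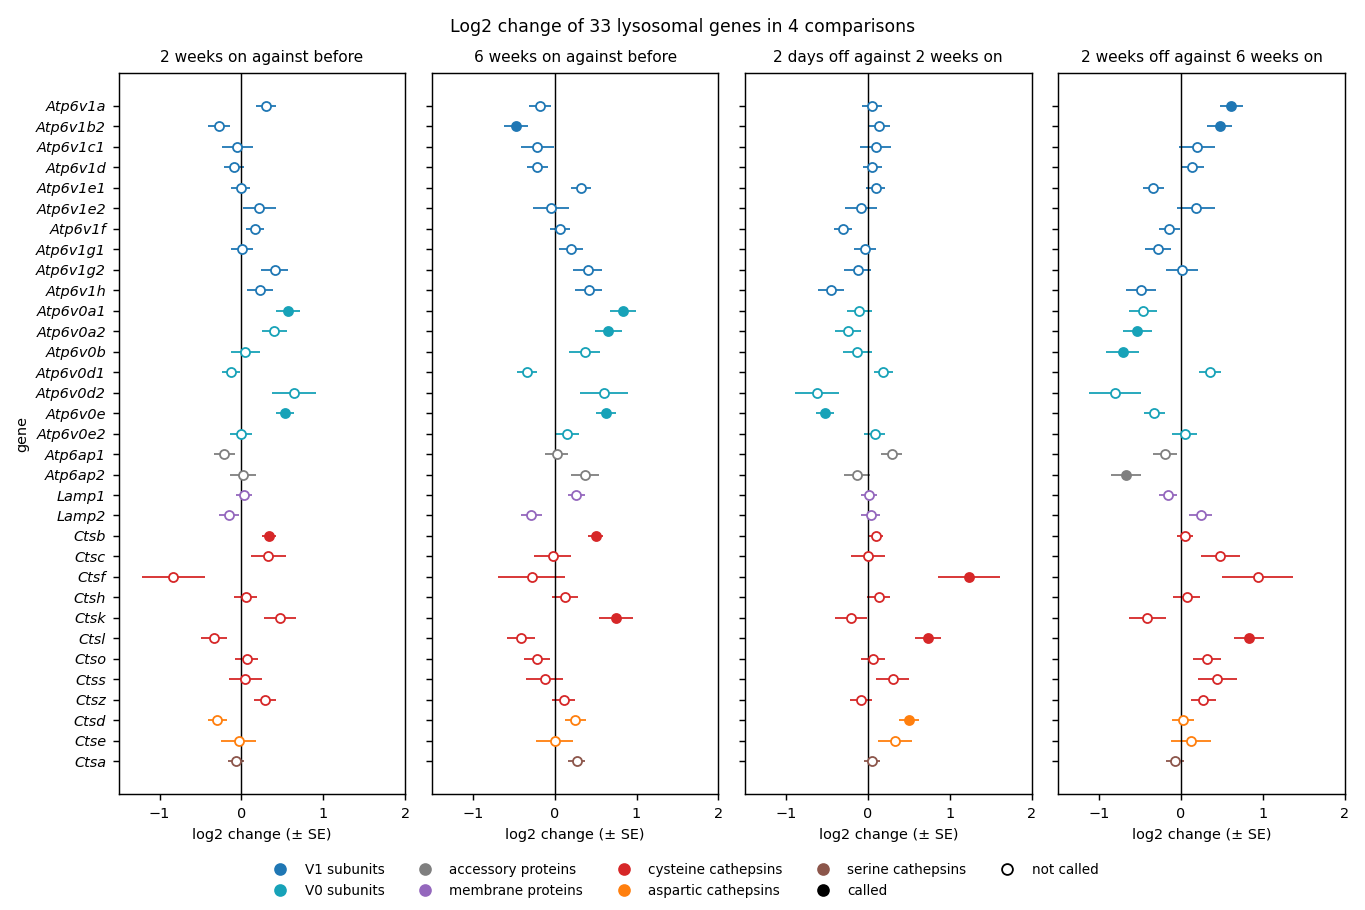
Log2 change (x axis, ± standard error) of each of the 33 genes by its brightest probe set in 4 comparisons, coloured by role; filled points were called at an adjusted p under 0.05. V0 subunits Atp6v0a1 and Atp6v0e lie to the right after 2 and 6 weeks of induction, and Ctsl lies to the right after both repressions.

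Among the 7 V0 subunits, which form the proton channel in the membrane, the genes called after induction by their brightest probe sets were all higher. Another probe set of Atp6v0b, described below, was called lower after 2 weeks of induction (-0.53). The median V0 change was 0.40 after 2 weeks and 0.60 after 6 weeks of induction, and -0.13 and -0.47 after 2 days and 2 weeks of repression. These 4 medians kept their sign with median scaling and with quantile normalization. They rest on the brightest probe sets, and each is the value of a gene not called in that comparison. In the order given these are Atp6v0a2, Atp6v0d2, Atp6v0b and Atp6v0a1. Of the 7 genes, 2 rose after 2 weeks and 3 after 6 weeks of induction, where 3.69% and 7.58% of all genes rose. Repression lowered 1 at 2 days and 2 at 2 weeks, where 5.36% and 5.53% of all genes fell. With so few genes no share was read as different from that over all genes.

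Atp6v0e, a small V0 subunit, gave signals of 984, 1028, 1065 and 989.6 before induction, and 1251, 1465, 1720 and 1569 after 2 weeks of induction. After 6 weeks its signals were 1632, 1688 and 1481. All 7 induced hearts lay above all 4 hearts before induction. Atp6v0e rose by 0.53 ± 0.11 at 2 weeks (adjusted p = 0.00605) and 0.63 ± 0.12 at 6 weeks (adjusted p = 0.00148). Hearts after 2 days of repression read 903, 1196, 939.7 and 1086, all below those of the 2-week induced hearts, and the gene fell by 0.52 ± 0.11 (adjusted p = 0.00426). Those after 2 weeks of repression read 1346, 1194 and 1258, above all hearts before induction and below all 6-week hearts, with a change of -0.33 (95% interval -0.60 to -0.05, adjusted p = 0.0877).

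Atp6v0a1, the form of the large V0 subunit best known from neurons, had signals of 899.6, 566, 622 and 697.5 before induction and 1223, 775, 1147 and 1085 after 2 weeks of induction. It rose by 0.57 ± 0.15 (adjusted p = 0.0228), although heart 2 of the induced group lay within the range before induction. The call was lost without any 1 of 5 of these 8 hearts (2 or 3 before induction; 1, 3 or 4 of the induced), at changes of 0.48 to 0.55 and adjusted p of 0.0583 to 0.0814. At 6 weeks the signals of 1416, 1027 and 1393 lay above all hearts before induction, and the gene rose by 0.84 ± 0.16 (adjusted p = 0.00146). Hearts repressed for 2 days read 933, 1051, 955 and 931, and the change against 2 weeks of induction was -0.11 (-0.42 to 0.21). Hearts repressed for 2 weeks read 873, 924 and 909, below all 6-week induced hearts, with a change of -0.47 (-0.83 to -0.10, adjusted p = 0.0657). The dimmer probe sets of Atp6v0a1 were not called on induction. Over its 4 probe sets the changes ran from -0.26 to 0.57 at 2 weeks and from -0.21 to 0.84 at 6 weeks.

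Atp6v0a2, the Golgi and endosomal form of that subunit, had signals of 355, 385, 489 and 483 before induction and 753, 499, 590.4 and 497 after 2 weeks of induction. The 2-week change was 0.40 (0.07 to 0.73, adjusted p = 0.124) with groups that did not overlap. At 6 weeks the signals of 777.5, 577 and 756 gave a rise of 0.66 ± 0.17 (adjusted p = 0.0104). The 3 hearts after 2 weeks of repression, at 406, 502 and 499.6, lay below them, and the gene fell by 0.53 ± 0.18 (adjusted p = 0.0466). This call was lost without any 1 of 5 of those 6 hearts, at -0.44 to -0.58 (adjusted p of 0.0737 to 0.144). At 2 days of repression its signals of 386, 582, 451 and 521 overlapped those of the 2-week induced hearts, with a change of -0.24 (-0.57 to 0.09). Dimmer probe sets of the gene went the other way at 6 weeks and were not called. Means before induction and at 6 weeks were 225 and 163 for 1424513_at, and 428 and 346 for 1449870_a_at. After 2 weeks of repression 1424513_at had a mean of 269, an uncalled change of 0.66 against 6 weeks of induction.

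Atp6v0b, the proteolipid of the proton-carrying ring, had 6-week induced signals of 1575, 1473 and 2694 and 2-week repressed signals of 1208, 1037 and 1081. It fell by 0.71 ± 0.20 (adjusted p = 0.0196). The value of 2694 came from the heart with the Actb ratio of 3.71, and without that heart the change was -0.44 (adjusted p = 0.121). It was also lost without repressed heart 2 or 3, at -0.67 (adjusted p = 0.0659) and -0.69 (adjusted p = 0.0553). The other probe sets of Atp6v0b were not called in this comparison. Means at 6 weeks of induction and after 2 weeks of repression were 1514 and 1400 for 1416769_s_at, and 810 and 777 for 1425448_x_at. By the brightest probe set the other changes of Atp6v0b, between -0.35 and 0.36, were not called. Atp6v0d2, known from osteoclasts and macrophages and measured on chip 430B, was uncalled throughout, with changes of 0.64 and 0.60 on induction and -0.62 and -0.81 on repression.

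Atp6v0d1, the broadly expressed d subunit at the joint of the sectors, was the 1 member with the same probe set on both chips, which gives a check between them. On chip 430A its signals were 1306, 1259, 1296 and 1340 before induction, 1021, 1123, 1348 and 1268 after 2 weeks of induction, and 1088, 1116 and 859 after 6 weeks. The repressed hearts read 1328, 1333, 1447 and 1325 at 2 days and 1501, 1220 and 1234 at 2 weeks. The 6-week change was -0.34 ± 0.12 (adjusted p = 0.0504) on chip 430A and -0.15 ± 0.15 (adjusted p = 0.648) on chip 430B. At 2 weeks of repression it was 0.36 ± 0.13 (adjusted p = 0.0609) and 0.53 ± 0.16 (adjusted p = 0.0727). The chips gave opposite signs after 2 weeks of induction, -0.13 and 0.05, and neither chip called the gene in any comparison. Atp6v0e2 had changes between -0.01 and 0.20 throughout.

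Among the 10 V1 subunits of the cytosolic, ATP-hydrolysing sector, 0 changed after 2 weeks of induction or after 2 days of repression by limma. Over all genes 6.59% and 10.6% were called there. After 6 weeks of induction 1 fell, where 8.14% of all genes fell. After 2 weeks of repression 2 rose, where 7.19% of all genes rose. The median V1 change stayed between -0.11 and 0.09 in all 7 comparisons. It was 0.01 after 2 days and 0.08 after 2 weeks of repression, and both turned negative with median scaling, at -0.11 and -0.05.

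Atp6v1a, the catalytic subunit that binds and hydrolyses ATP, had signals of 444, 621, 556 and 501 before induction and 630.3, 707, 668 and 638 after 2 weeks of induction. The groups did not overlap, and the change was 0.30 (0.05 to 0.56, adjusted p = 0.140). At 6 weeks the signals were 465, 512 and 407.5, below all 2-week induced hearts, and the gene fell by 0.48 ± 0.13 against them (adjusted p = 0.0343). This call was lost without any 1 of 5 of the 7 hearts, at -0.40 to -0.49 (adjusted p of 0.0557 to 0.109), and with median scaling, at -0.38 (adjusted p = 0.0824). The 6-week hearts overlapped those before induction, with a change of -0.18 (-0.45 to 0.10). Repression for 2 weeks raised Atp6v1a by 0.61 ± 0.14 (adjusted p = 0.00555), to 628, 847 and 729.6. At 2 days of repression it was 730.4, 664, 625 and 735, with a change of 0.05 against 2 weeks of induction. The other probe set of Atp6v1a, 1422508_at, did not share the rise after 2 weeks of repression. Its mean was 417 at 6 weeks of induction and 399 after repression, a change of -0.05.

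Atp6v1b2, the B subunit that shares the nucleotide-binding head with Atp6v1a, had signals of 1194, 1148, 948 and 1125 before induction. At 6 weeks they were 981, 763 and 629, and the gene fell by 0.47 ± 0.14 (adjusted p = 0.0247). With 2 weeks of repression it rose by 0.47 ± 0.15 (adjusted p = 0.038), to 1110, 1150.4 and 1040.4, above all 6-week induced hearts. The lowest value, 629, belongs to the heart with the Actb ratio of 3.71, and without it the changes were -0.33 (adjusted p = 0.136) and 0.33 (adjusted p = 0.181). Without another single heart these calls were lost in 4 and 4 further cases, at -0.44 to -0.46 (adjusted p of 0.0502 to 0.0623) and 0.44 to 0.51 (adjusted p of 0.0617 to 0.109). Median scaling ended both, at -0.28 (adjusted p = 0.230) and 0.33 (adjusted p = 0.184). A dimmer probe set of the gene, 1419883_s_at, fell by 1.00 ± 0.19 at 6 weeks and rose by 1.19 ± 0.21 after repression, and it stayed called without that heart, at -0.85 (adjusted p = 0.0113) and 1.04 (adjusted p = 0.00581).

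The other 8 V1 genes were not called by their brightest probe sets in any comparison. Atp6v1h, a regulatory subunit of the sector, came nearest after 2 days of repression, at -0.45 (-0.78 to -0.13, adjusted p = 0.0502), and had -0.49 after 2 weeks of repression (adjusted p = 0.064). Atp6v1e1, a stalk subunit, changed by 0.32 at 6 weeks of induction (0.06 to 0.58) and -0.34 after 2 weeks of repression, both with groups that did not overlap and neither called.

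Of the accessory proteins, Atp6ap2, also known as the prorenin receptor, fell after the longer repression and Atp6ap1 was not called. Atp6ap2 had signals of 1837, 1302, 1268 and 1638 before induction, 1213, 1539, 1758 and 1619 after 2 weeks of induction, and 1675, 2069 and 2132 after 6 weeks. Hearts repressed for 2 weeks read 1501, 1160 and 993, below all 6-week hearts, a fall of 0.68 ± 0.18 (adjusted p = 0.0148). Without the heart of Actb ratio 3.71 the change was -0.61 (adjusted p = 0.058), and without repressed heart 3 it was -0.54 (adjusted p = 0.0767). Against hearts before induction the 6-week change was 0.37 (0.01 to 0.73, adjusted p = 0.127). The dimmer probe sets of Atp6ap2 did not share the fall after repression and were not called. Means at 6 weeks of induction and after 2 weeks of repression were 568 and 683 for 1423662_at, and 1023 and 1071 for 1439456_x_at. Atp6ap1, which assists assembly of the pump, ranged from 1208 to 2017 over all hearts, with changes between -0.21 and 0.29.

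Lamp1 and Lamp2, the abundant glycoproteins that line the lysosomal membrane, were not called by their brightest probe sets. Lamp1 had 7768, 6844, 7864 and 7682 before induction and 9792, 8038 and 9437 after 6 weeks, groups that did not overlap, with a change of 0.27 (0.04 to 0.49, adjusted p = 0.0801). Its other groups lay between 7128 and 8846. Lamp2 had 3918, 3299, 3757 and 3026 before induction and 2955, 2819 and 2757 after 6 weeks, a change of -0.29 (-0.56 to -0.02, adjusted p = 0.117). With 2 weeks of repression its signals were 4004, 3098 and 3064, with a change of 0.24 (-0.05 to 0.53). For these membrane proteins the 6-week values lay on opposite sides of those before induction.

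Among the 9 cysteine cathepsins, by brightest probe sets, Ctsb rose on induction and was still higher after repression. Ctsk rose at 6 weeks, and Ctsl and Ctsf rose on repression. A second probe set of Ctsb, described below, was not called on induction. By limma 1 of the 9 rose after 2 weeks of induction and 2 after 6 weeks, where 3.69% and 7.58% of all genes rose. After 2 days of repression 2 rose and after 2 weeks 1, where 5.23% and 7.19% of all genes rose. In these comparisons 0 fell by limma, where 2.90%, 8.14%, 5.36% and 5.53% of all genes fell. A dimmer probe set of Ctsc, described below, was called lower at 6 weeks of induction. Against hearts before induction, all 9 had a change above 0 after 2 days of repression, with a median of 0.33, and after 2 weeks, with a median of 0.39. The median over all genes was -0.009 and -0.001 there. No share of all genes above 0 was at hand, and these comparisons share the hearts before induction, which include those with Xist signal. The count of signs is therefore not read as a shared rise. In each of those comparisons 1 of the 9 was called higher, where 2.00% and 1.50% of all genes were. With quantile normalization 8 of 9 were above 0 in each, and with median scaling 9. Other probe sets of these genes lay below 0. The lowest after 2 days were -0.74 for Ctso, -0.27 for Ctsc, -0.21 for Ctsb and -0.20 for Ctsf. After 2 weeks they were -0.48 for Ctsf, -0.47 for Ctsb, -0.24 for Ctso and -0.02 for Ctsz.

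Ctsb, one of the most abundant lysosomal proteases, had signals of 7187, 6391, 6863 and 7342 before induction and 9051, 8438, 8930 and 8554 after 2 weeks of induction. It rose by 0.33 ± 0.09 (adjusted p = 0.0204) at 2 weeks, a call lost without heart 2 or 3 before induction or heart 3 of the induced (0.29 to 0.33, adjusted p of 0.055 to 0.0731), and by 0.50 ± 0.09 (adjusted p = 0.000997) at 6 weeks, when the signals were 10619, 9632 and 9322. In repressed hearts the signals were 9204, 9120, 9707 and 9362 after 2 days and 10607, 9371 and 10578 after 2 weeks of repression, all above every heart before induction. Against those hearts the change was 0.43 ± 0.09 after 2 days (adjusted p = 0.00716; 0.40 and 0.0787 with median scaling) and 0.55 ± 0.09 after 2 weeks of repression (adjusted p = 0.00286). Against the induced hearts it was 0.10 (-0.08 to 0.28) and 0.05 (-0.16 to 0.25).

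Ctsl, a protease of autophagic protein turnover in heart muscle, had signals of 4004, 3564, 2919 and 3770 before induction and 2468, 2758, 2860 and 3168 after 2 weeks of induction. At 6 weeks they were 3192, 3271 and 1778, with the lowest from the heart of Actb ratio 3.71. The induction changes were -0.33 (-0.66 to 0.0001, adjusted p = 0.217) and -0.41 (-0.77 to -0.05, adjusted p = 0.0936), with groups that overlapped. Hearts repressed for 2 days read 4884, 4087, 4874 and 5077, and those repressed for 2 weeks 5302, 4486 and 4552. All 7 repressed hearts lay above all 7 induced hearts and all 4 before induction.

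Against induced hearts Ctsl rose by 0.74 ± 0.16 after 2 days (adjusted p = 0.00394) and by 0.83 ± 0.18 after 2 weeks of repression (adjusted p = 0.00407). Without the heart of Actb ratio 3.71 the latter was 0.55 (adjusted p = 0.0172), and with the Actb ratio of each array in the model 0.44 (adjusted p = 0.0647). With that ratio in the model the 2-day change was 0.52 (adjusted p = 0.00578). Against hearts before induction the values were 0.41 (0.08 to 0.74, adjusted p = 0.143) after 2 days and 0.42 (0.06 to 0.78, adjusted p = 0.185) after 2 weeks of repression.

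Ctsk, a collagen-degrading cathepsin best known from osteoclasts, had signals of 162, 162, 278 and 184 before induction and 216, 377, 203 and 391 after 2 weeks of induction. At 6 weeks they were 340.2, 426.5 and 315, above all hearts before induction, and Ctsk rose by 0.75 ± 0.21 (adjusted p = 0.0174). Without heart 2 of the 6-week group the rise was 0.64 (adjusted p = 0.073). Hearts repressed for 2 weeks read 298, 268 and 209, below all 6-week hearts, with a change of -0.41 (-0.89 to 0.06, adjusted p = 0.222). At 2 days of repression they were 272.5, 210.4, 216 and 272, with a change of -0.20 (-0.62 to 0.21).

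Ctsf, a lysosomal cathepsin with a cystatin-like propeptide, varied most between hearts of a group. Its signals were 23.8, 247, 177 and 354 after 2 weeks of induction and 344, 659, 540.5 and 325 after 2 days of repression. It rose by 1.24 ± 0.38 (adjusted p = 0.0293), although the groups overlapped, and without the heart at 23.8 the change was 0.73 (adjusted p = 0.0906). Leaving out heart 3 of the induced or heart 2 or 3 of the repressed group also ended the call, at 1.07 to 1.27 (adjusted p of 0.0533 to 0.0914). So did median scaling (1.14, adjusted p = 0.0502), the Actb ratio in the model (1.10, adjusted p = 0.0879) and a model of only the groups compared (adjusted p = 0.0504). Before induction its signals were 406, 351, 209 and 375, and after 6 weeks of induction 372, 171 and 268.5. Hearts repressed for 2 weeks read 744, 466 and 456, above all 6-week hearts, with a change of 0.93 (0.02 to 1.85, adjusted p = 0.148).

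Ctss and Ctsz, both abundant in macrophages, were not called. Ctss had group means of 666 ± 128 before induction, 682 ± 28.9 after 2 weeks and 605 ± 104 after 6 weeks of induction, and 882 ± 254 and 865 ± 271 after 2 days and 2 weeks of repression. Its repression changes were 0.30 (-0.13 to 0.73) and 0.45 (-0.05 to 0.94). Ctsz lay at 1137, 1038, 934 and 965 before induction and at 1463, 1414 and 1169 after 2 weeks of repression, groups that did not overlap, with a change of 0.39 (0.09 to 0.68, adjusted p = 0.139). The other cysteine cathepsins, Ctsc, Ctsh and Ctso, had uncalled changes between -0.35 and 0.48 by their brightest probe sets. On chip 430B a dim Ctsc probe set, 1437939_s_at, was called lower at 6 weeks of induction (-1.21) and higher after 2 weeks of repression (1.45). Its means were 42.3 before induction, 13.6 at 6 weeks and 52.1 after repression, around the filter signal of 24.5. A Ctsh probe set, 1443814_x_at, rose by 0.82 at 6 weeks, from a mean of 220 to 409.

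**Figure D3:**
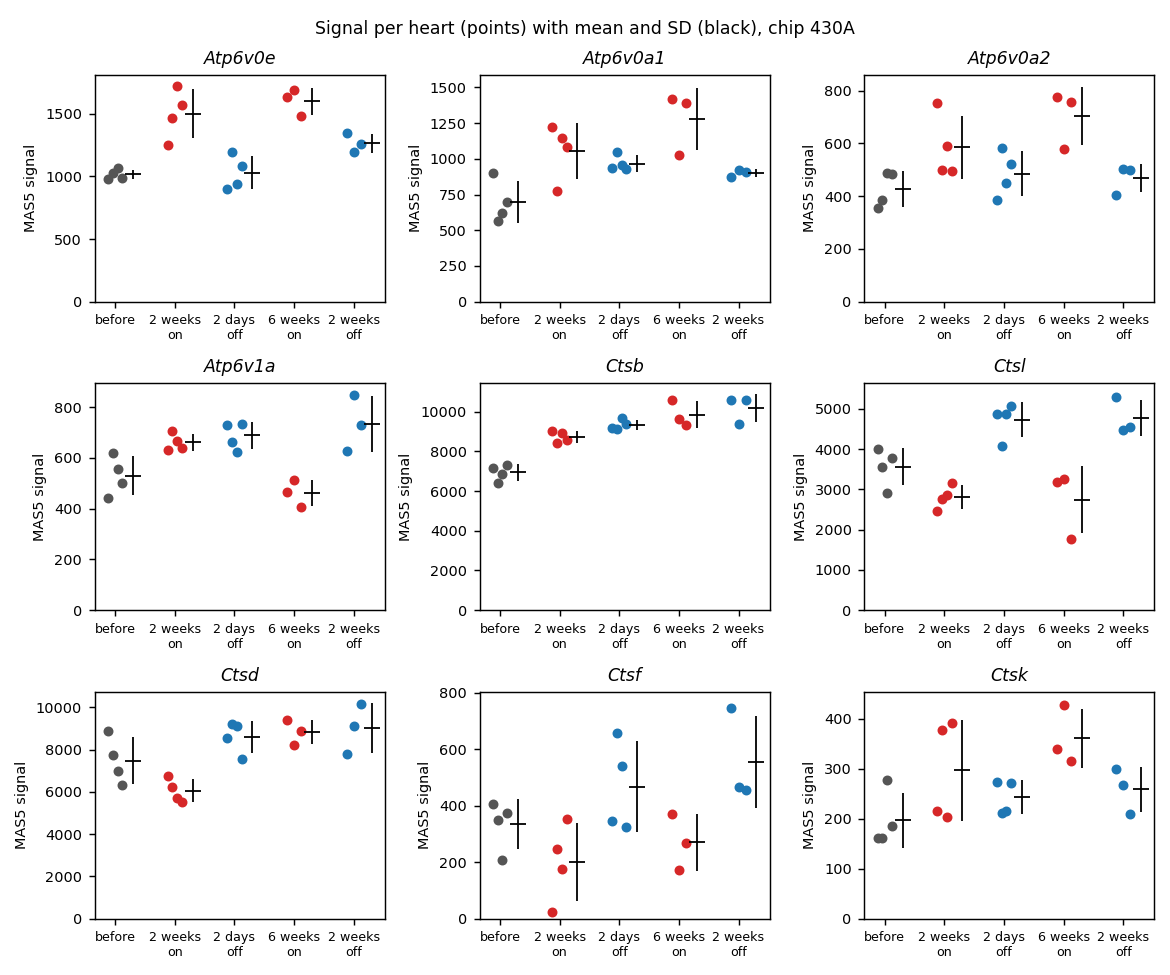
MAS5 signal (y axis, from 0) of 9 genes in each heart by its brightest probe set, with the group mean and SD in black; grey, before induction; red, induced; blue, repressed. All 7 blue points of Ctsl lie above the other hearts, while the blue and red points of Ctsb lie together above those before induction.

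Ctsd, the main aspartic protease of lysosomes, was lowest after 2 weeks of induction. Its signals were 8872, 7736, 6976 and 6313 before induction and 6749, 6235, 5723 and 5527 after 2 weeks of induction, a change of -0.29 (-0.54 to -0.05, adjusted p = 0.134). At 6 weeks they were 9394, 8239 and 8892, above all 2-week hearts, and Ctsd rose by 0.54 ± 0.13 between these times (adjusted p = 0.0144), or 0.50 without heart 1 of the 6-week group (adjusted p = 0.0621). At 2 days of repression it was 8557, 9190, 9097 and 7563, above all 2-week induced hearts, a rise of 0.50 ± 0.12 (adjusted p = 0.00671). This call was lost with median scaling, at 0.38 (adjusted p = 0.0795). At 2 weeks of repression it was 7780, 9092 and 10152, a change of 0.02 (-0.26 to 0.30) against 6 weeks of induction.

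Ctse, an endosomal relative of Ctsd, ranged from 189 to 551 by its brightest probe set and was not called. Ctsa, a serine carboxypeptidase that also protects beta-galactosidase and neuraminidase, had 1928, 1764, 1852 and 1596 before induction. At 6 weeks its signals of 2053, 2144 and 2278 lay above both earlier groups, with changes of 0.27 (0.05 to 0.49, adjusted p = 0.0766) against before and 0.34 (0.12 to 0.56, adjusted p = 0.0602) against 2 weeks of induction, and it was not called in any comparison.

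Probe sets of one gene often disagreed, and 22 of the 33 genes had several. Among the 70 passing probe sets, 4 were called after 2 weeks of induction (5.01% of all probe sets), 13 after 6 weeks (13.2%), 12 after 2 days of repression (9.73%) and 14 after 2 weeks of repression (10.9%). Counting a gene by any of its probe sets, 19 were called in at least 1 comparison, again with no share of all genes at hand. The median range between the probe sets of a gene was 0.57 after 2 days and 0.76 after 2 weeks of repression, and in both comparisons 13 of 22 genes had probe sets of both signs. The plot of all probe sets by gene shows both repressions.

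**Figure D4:**
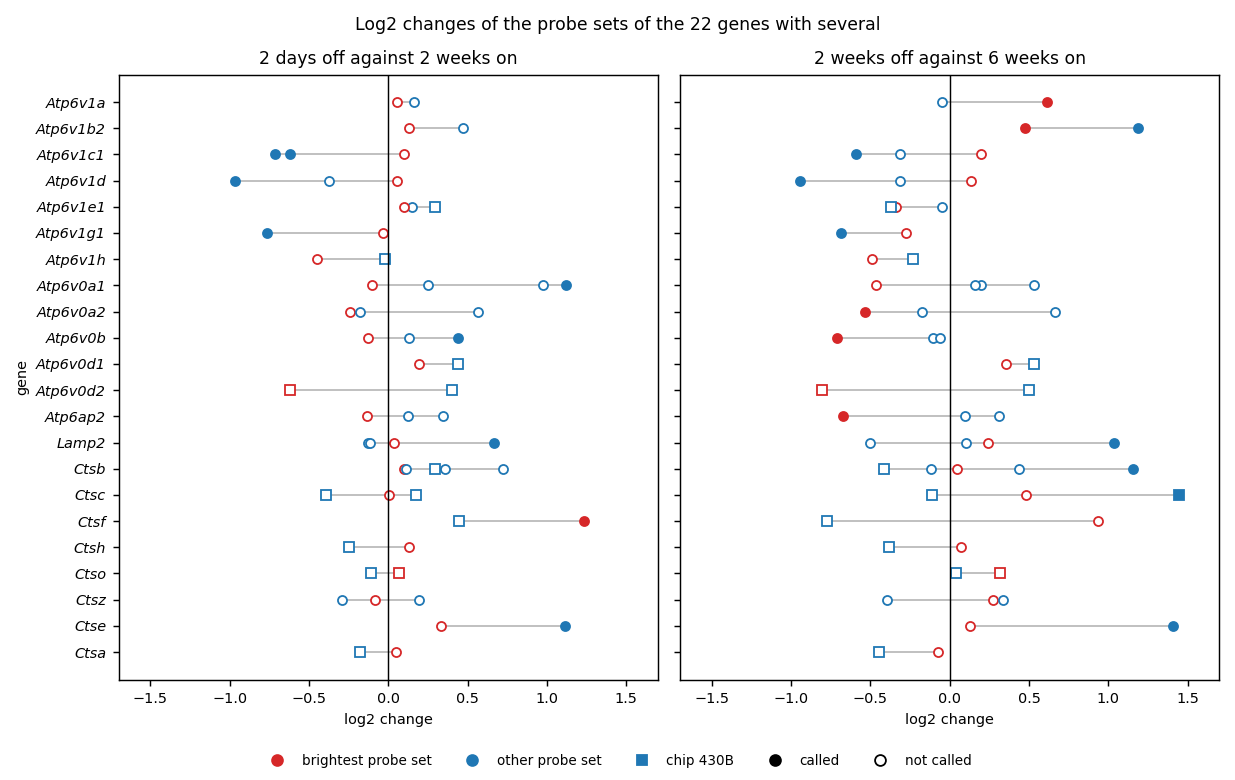
Log2 change (x axis) of every passing probe set of the 22 genes with several, 2 days off against 2 weeks on and 2 weeks off against 6 weeks on; red, brightest probe set; blue, others; squares, chip 430B; filled, called. For Atp6v1c1, Atp6v1d and Atp6v1g1 a dimmer probe set was called lower in both comparisons while the brightest was not called.

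Lamp2 was the 1 gene with calls in both directions in a comparison. At 6 weeks probe set 1434503_s_at rose by 0.87 ± 0.31 (adjusted p = 0.0479) and 1416343_a_at fell by 0.90 ± 0.24 (adjusted p = 0.0116). In the heart of Actb ratio 3.71 these probe sets read 5694, against 2223 and 2868 in the other 6-week hearts, and 82.5, against 183 and 274. Without that heart their changes were 0.49 (adjusted p = 0.280) and -0.55 (adjusted p = 0.0864). Without the Xist hearts before induction they were 0.72 (adjusted p = 0.241) and -0.82 (adjusted p = 0.0836). On repression 1416343_a_at rose by 0.67 ± 0.22 at 2 days (adjusted p = 0.0414, or 0.0521 in the model without the Xist hearts) and by 1.04 ± 0.25 at 2 weeks, and without that heart the latter was 0.68 (adjusted p = 0.0538).

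A second probe set of Ctsb, 1448732_at, had a mean of 5154 ± 515 (SD, n = 4) before induction, and 5140 ± 1012 (n = 4) after 2 weeks of induction. Unlike the brightest probe set, it was not called higher at 2 or 6 weeks of induction. It read 3660, 5944, 5418 and 5537 after 2 weeks of induction and 7914, 8618, 7903 and 9198 after 2 days of repression. At 6 weeks of induction it read 5859, 6139 and 1853, the last from the heart of Actb ratio 3.71, and after 2 weeks of repression 9259, 8441 and 9743. It rose by 1.16 ± 0.29 after 2 weeks of repression (adjusted p = 0.0102), or 0.60 without that heart (adjusted p = 0.0221), where the brightest probe set had 0.05. Atp6v1d (1438993_a_at) and Atp6v1g1 (1423256_a_at) fell by 0.97 ± 0.23 and 0.76 ± 0.17 after 2 days of repression. Atp6v1c1 (1419545_a_at) fell by 0.71 ± 0.15 there and by 0.63 ± 0.16 after 2 weeks of repression against hearts before induction, the latter call lost without the Xist hearts (-0.64, adjusted p = 0.142). For these 3 genes the fall after 2 weeks of repression lost its call without the heart of Actb ratio 3.71, at -0.54 (adjusted p = 0.112), -0.39 (adjusted p = 0.103) and -0.34 (adjusted p = 0.137).

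Other probe sets were called where the brightest was not. For Ctse, 1427797_s_at rose by 1.11 ± 0.30 after 2 days and 1.41 ± 0.34 after 2 weeks of repression. Its means were 73.8 before induction and 101 and 32.6 after 2 and 6 weeks of induction, near or below the filter signal of 100.04. This probe set passed the filter through the repressed hearts, with means of 283 and 161, so its rises carry little weight. For Atp6v0b, 1416769_s_at fell by 0.53 ± 0.15 after 2 weeks of induction and rose by 0.44 ± 0.15 after 2 days of repression. Without the Xist hearts neither was called, at -0.54 (adjusted p = 0.162) and 0.44 (adjusted p = 0.0619). For Atp6v0a1, 1460650_at rose by 1.12 ± 0.27 after 2 days of repression, where the brightest probe set had -0.11. Of the 14 probe sets called after 2 weeks of repression, 5 stayed called without the 6-week heart of Actb ratio 3.71, those of Atp6v1a, Ctsl, Ctsb (1448732_at), Ctse (1427797_s_at) and Atp6v1b2 (1419883_s_at). With the Actb ratio in the model 1 of the 14 stayed called, Atp6v1b2 (1419883_s_at) at 0.89 (adjusted p = 0.0182). Whether RNA quality sets these changes was not tested beyond these values.

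The late and the early response to repression differ in the length of both induction and repression. The difference between them was called by limma for 0 of the 33 genes, with 1 higher and 5 lower at an unadjusted p under 0.05, while 0.642% of all genes were called. Its largest values were 0.56 ± 0.19 for Atp6v1a (0.17 to 0.95, adjusted p = 0.170) and -0.58 ± 0.27 for Atp6v0b (-1.14 to -0.02, adjusted p = 0.35). For Ctsl it was 0.09 (-0.41 to 0.60) and for Ctsd -0.48 (-0.86 to -0.11, adjusted p = 0.227). These intervals include differences as large as many of the changes called.

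Some calls rest on the hearts before induction with Xist signal. Without those hearts the 2-week rises were not called, at 0.55 for Atp6v0e (adjusted p = 0.0579), 0.51 for Atp6v0a1 (adjusted p = 0.183) and 0.36 for Ctsb (adjusted p = 0.0996). The 6 genes called at 6 weeks of induction stayed called without them by their brightest probe sets, and 2 of the 7 other probe sets called there did. With the Actb ratio in the model 5 of those 6 stayed called, all but Atp6v1b2, while after 2 weeks of repression 0 of 6 did by limma, with adjusted p between 0.063 and 0.397.

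Among other lysosomal hydrolases, 2 rose and 7 fell of 34 measured after 6 weeks of induction, where 7.58% of all genes rose and 8.14% fell. At 2 weeks of repression 8 rose and 1 fell, where 7.19% of all genes rose and 5.53% fell. With 2 days of repression 5 rose and 1 fell, where 5.23% and 5.36% of all genes did, with Idua, an iduronidase, up by 0.57 ± 0.12. Galc, which degrades galactosylceramide, rose by 1.18 ± 0.27. Its mean was 65.7 before induction and 72.5 and 81.0 after 2 and 6 weeks of induction, all below the filter signal of 100.04. Galc passed the filter through the repressed hearts, at 222 and 134, so its rise carries little weight. Smpd1, acid sphingomyelinase, fell by 0.64 ± 0.12 at 6 weeks and rose by 0.56 ± 0.13 after 2 weeks of repression. The median change of the 34 was -0.13 at 6 weeks and 0.30 after 2 weeks of repression, where the lysosomal pump and cathepsin genes had 0.13 and 0.05. Of 25 other lysosomal membrane proteins, 3 rose and 1 fell at 6 weeks, and 4 rose and 2 fell after 2 weeks of repression, against the same shares of all genes. Of 24 genes for delivery of enzymes to lysosomes, 4 rose and 2 fell at 6 weeks, where 7.58% and 8.14% of all genes did, among them Gnptab, which makes the mannose 6-phosphate tag, down by 0.95 ± 0.17, and it rose by 0.93 ± 0.18 after 2 weeks of repression.

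Of 5 inhibitors of cysteine cathepsins measured, 1 rose at 2 weeks and 3 at 6 weeks of induction, where 3.69% and 7.58% of all genes rose, and none fell. Cst3, cystatin C, had a signal of 8660 ± 1180 before induction and 12858 ± 1052 after 6 weeks, and it rose by 0.40 ± 0.10 at 2 weeks and 0.57 ± 0.11 at 6 weeks of induction. It fell by 0.44 ± 0.12 after 2 weeks of repression. At 6 weeks of induction Ctla2a rose by 0.85 ± 0.29 and Ctla2b by 0.73 ± 0.20. Each repression lowered 2 of the 5, where 5.36% and 5.53% of all genes fell, Cst6 and Cstb at 2 days and Ctla2b and Cst3 at 2 weeks.

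Of 26 genes for transcriptional control of lysosomes and docking of mTORC1 to them, 4 rose and 2 fell after 2 days of repression, where 5.23% of all genes rose and 5.36% fell. At 2 weeks of repression 4 rose and 1 fell, where 7.19% rose and 5.53% fell. Rragd, a Rag GTPase that recruits mTORC1 to the lysosome, had a signal of 921 ± 100.2 before induction and 485 ± 56.7 after 2 weeks of induction, on chip 430B. It was 1542 ± 236 after 2 days of repression, a rise of 1.64 ± 0.17 (adjusted p = 1.75e-05), and it rose by 1.09 ± 0.19 after 2 weeks of repression. Tsc2, an inhibitor of mTORC1 and a target of Akt, fell by 0.80 ± 0.19 at 2 weeks of induction and rose by 0.93 ± 0.19 and 1.29 ± 0.22 after the repressions. Tfeb itself was not called, with changes of 0.14 and 0.44 on induction and -0.20 and -0.37 on repression.

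Macrophages are rich in cathepsins. Of 21 markers measured, 1 rose at 2 weeks of induction (Mpeg1), 2 after 2 days (Lyz2 and Tyrobp) and 3 after 2 weeks of repression (Lyz2, Ptprc and Cx3cr1), where 3.69%, 5.23% and 7.19% of all genes rose. By limma 0 fell in these comparisons, with 2, 2 and 6 markers at an unadjusted p under 0.05 in either direction. The defining markers Csf1r, Adgre1, C1qa and Cd68 were all measured and none was at 0. The summed signal of the 21 ranged from 10192 to 14929 before induction, 12098 to 12983 after 2 weeks and 9475 to 15328 after 6 weeks of induction, and from 13184 to 19378 and 13735 to 19826 after 2 days and 2 weeks of repression. The part of these cells in the rises of Ctsl, Ctsd and Ctsf on repression was not tested.

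Of 11 fibroblast markers, 5 rose and 1 fell after both 2 and 6 weeks of induction, where 3.69% and 7.58% of all genes rose and 2.90% and 8.14% fell. Their summed signal ranged from 32145 to 41635 before induction and from 40738 to 51731 after 6 weeks. The median change of the 11 was 0.28 at 2 weeks and -0.02 at 6 weeks. Of the defining markers, Col1a1 had 1174 ± 385 before induction and 2577 ± 776 after 6 weeks. Dcn had 15594 ± 1703 and 15362 ± 322, and Pdgfra 748 ± 138 and 772 ± 396. The part of these cells in the rise of Ctsk was not tested. Among T, NK and B cell markers 3 of 10 on the chips passed the filter, and Cd3e and Nkg7 did not. Among markers of mast cells and granulocytes 4 of 9 did, and S100a8 did not. By limma 0 of these 7 were called in any comparison, with 1 and 2 at an unadjusted p under 0.05 after 6 weeks of induction.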

How the data were processed

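Each of the 18 hearts was measured on a pair of Affymetrix arrays, chips 430A and 430B, 36 in all. The deposited intensity values are linear MAS5 signals per probe set, per the submitters' processing notes; no version was named. Arrays of a chip shared a 2% trimmed mean (500.2 and 122.5), so signals were used as deposited. Probe sets with a mean signal of at least 20% of it were kept (33084). Symbols came from the platform annotation; all 42 member symbols matched RefSeq. From the deposited signals log2(signal + offset) was computed, with offsets of 50.02 and 12.25. Separate models per chip came from limma 3.58.1 (R 4.3.3), using lmFit with 1 mean per group over all its arrays and eBayes with a trend, checked on simulated data, with p-values adjusted by Benjamini-Hochberg within a chip. The brightest passing probe set stands for a gene, on 430A where possible.

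The members, lists, comparisons and alternatives were chosen with earlier results of these data known. Named are all called members, 14 anchor genes (Lamp1, Lamp2, Atp6v0d1, Atp6v1a, Atp6v0a1, Atp6ap1, Atp6ap2, Ctsa, Ctsb, Ctsd, Ctsl, Ctsk, Ctss and Ctsz), members with opposite probe set calls, up to 4 called genes per other list and comparison, Akt1 and Tfeb; other members named by value were chosen after their values were seen. Hearts came from individual mice, per the labels, and their number limits the precision. The labels and files name no batch. Alternatives covered the offset, filter, scaling, trend, arrays in the model, multiple testing, replicate block, Actb ratio, probe set rule and single hearts left out.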

Additional observations from a re-analysis of the deposited data

Results flagged for a closer look

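In 57 groups of 4 hearts (19 members of the named genes), the highest or lowest heart of 3 groups stood far from the others, a share near the 1 in 20 that chance gives. Atp6ap1 read 1518 in heart 2 after 2 days of repression, against 1981 to 2017 in the other 3. Atp6v0d1 read 1447 in heart 3 of the same group, against 1325 to 1333. Lamp1 read 8846 in heart 1 after 2 weeks of induction, against 7184 to 7428. None of these 3 genes was called in any comparison.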

How the results depend on the processing

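Counts of calls among the 33 genes moved with the probe set rule, the scaling, the arrays in the model and single hearts. Over the 23 called changes, 439 alternatives kept 363 calls, lost 76 and reversed 0, and of 1986 alternatives for uncalled changes 27 gave a call, 0 of them with the opposite sign. After 2 weeks of induction the 3 calls became 1 with only the groups compared in the model and 0 without hearts 3 and 4 before induction. At 6 weeks the 6 calls became 11 with median scaling (all higher), 11 with quantile normalization and 10 by any probe set. Between 6 and 2 weeks of induction the 2 calls became 1 with median scaling, 0 with only the groups compared, 1 with the Actb ratio and 4 by any probe set. The 4 calls at 2 days of repression became 11 by any probe set. Against hearts before induction, the 1 call at 2 days of repression became 0 with median scaling, 2 with quantile normalization, 2 with only the groups compared and 3 by any probe set. The 6 calls at 2 weeks of repression became 0 with only the groups compared, 0 with the Actb ratio and 13 by any probe set, and the 1 call against hearts before induction became 2 with median scaling, 2 with quantile normalization and 2 by any probe set. With only the groups compared fewer arrays estimate the spread; otherwise the cause was not tested. The difference of the responses stayed at 0 calls under every alternative.

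Leaving out single hearts gave 1 to 3 calls at 2 weeks and 5 to 8 at 6 weeks of induction, 0 to 3 between these times, 3 to 5 at 2 days of repression and 1 to 2 against hearts before induction. At 2 weeks of repression it gave 2 (without heart 3 of the 6-week group) to 8 calls, and 1 to 1 against hearts before induction. Replicate numbers name individual mice and did not pair them: the 48 correlations of same-numbered deviations ran from -0.16 to 0.33. With the replicate number as a block the counts were 3, 7, 2, 5, 1, 5, 1 and 0, in the order of the comparisons above with the difference last; at 2 weeks of repression Atp6v0a2 (-0.53, adjusted p = 0.0668) and Atp6v1b2 (0.47, adjusted p = 0.0527) lost their calls.

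Groups of 3 and 4 hearts limit precision. Signals near the filter, such as those of Atp6v1e2, are compressed by the offset, and age, transgene state and duration cannot be told apart.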
